A study of Mus musculus with 3 samples.

Results

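The genes described here are 10 mesenchymal transcription factors known for their part in epithelial-mesenchymal transition (EMT), namely Twist1, Twist2, Snai1, Snai2, Zeb1, Zeb2, Prrx1, Prrx2, Tcf21 and Foxc2. They were taken by gene name, and each name matched 1 of the 55573 genes listed. The data were UMI-RNAseq libraries of NIH3T3 cells, an established line of mouse embryonic fibroblasts, grown in serum-containing medium without treatment. There were 3 libraries, called library 1, 2 and 3 here, and they share 1 condition. No group could therefore be compared with another, and the question addressed was the level of each factor and which paralog of each pair was the higher. Whether each library had a culture of its own is not stated in the sources used here, and the SD may thus hold only technical spread. The values were FPKM, that is, fragments scaled to a gene length of 1 kb and a library of 1000000 fragments. Behind them stood 13959723 to 14423209 fragments per library after removal of PCR copies by their molecular tags (UMIs). The extraction text of the labels mentions retina. All 10 fibroblast markers checked lay above 1 FPKM, with a summed level of 9812 to 9935 FPKM per library. None of 12 retina markers did, and their summed level was 1.10 to 1.61 FPKM, with Nrl at 0.

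In EMT, epithelial cells lose junctions and polarity and take up a migratory, matrix-producing state. Snail proteins (Snai1, Snai2) and ZEB proteins (Zeb1, Zeb2) are zinc-finger repressors that bind E-box sequences, among others in the promoter of E-cadherin. Twist1 and Twist2 are basic helix-loop-helix (bHLH) factors that bind E-boxes as dimers. Prrx1 and Prrx2 are paired-related homeobox factors of limb and craniofacial mesenchyme, Foxc2 is a forkhead factor of mesoderm and vessels, and Tcf21 is a bHLH factor of visceral and cardiac fibroblasts. Fibroblasts are mesenchymal from the start, so these genes are also used as marks of mesenchymal identity and positional origin in such cells.

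The paralogs are alike in their DNA-binding parts, so their coding sequences were first compared to see whether reads could tell them apart. The most alike stretch of 60 nt, aligned without gaps, is shown for the pairs in which it could be printed, on GRCm38 and from the GENCODE M21 isoform with the longest coding sequence. Gene positions are given on the same build. The stretches printed lie in coding exons, on the plus strand except that of Prrx1. Capitals mark the bases that differ within the pair. The stretch of Twist1 lies at chr12:33958338-33958397 and that of Twist2 at chr1:91801849-91801908, with 4 differences.
Twist1: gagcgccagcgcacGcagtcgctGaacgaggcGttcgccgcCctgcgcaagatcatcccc
Twist2: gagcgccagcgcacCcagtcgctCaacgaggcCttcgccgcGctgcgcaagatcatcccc
For Snai1 it lies at chr2:167539079-167539138 and for Snai2 at chr16:14707140-14707199, with 8 differences.
Snai1: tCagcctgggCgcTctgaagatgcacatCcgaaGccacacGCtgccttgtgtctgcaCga
Snai2: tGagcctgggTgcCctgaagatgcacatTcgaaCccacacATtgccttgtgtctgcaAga
For Prrx1 it lies at chr1:163261903-163261962 and for Prrx2 at chr2:30878469-30878528, with 7 differences.
Prrx1: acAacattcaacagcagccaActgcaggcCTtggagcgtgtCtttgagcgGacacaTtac
Prrx2: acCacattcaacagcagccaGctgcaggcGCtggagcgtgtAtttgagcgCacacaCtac
In Zeb1 and Zeb2 the most alike 60 nt differed at 4 bases. The longest identical run in the coding sequences was 23 nt for Twist1 and Twist2, 22 nt for Snai1 and Snai2, 23 nt for Zeb1 and Zeb2 and 19 nt for Prrx1 and Prrx2. Every pair thus differed within stretches shorter than a sequenced read. None of the 75-nt words in the annotated isoforms of Twist1, Snai1, Snai2, Prrx1, Prrx2, Tcf21 or Foxc2 was found in transcripts of other genes. For Zeb1 and Zeb2, 1.16% and 1.49% of words did so, all of them with the opposite-strand transcripts of Gm10125 and Zeb2os. For Twist2 the figure was 45.3%, with the antisense gene Gm29100. No word was shared between paralogs. In all, 15 annotated genes overlap a member, of which Gm29100 had 2.15 ± 0.122 FPKM (SD, n = 3) and the others at most 0.983. Apart from those named, Mir5129 and Gm27761 share at most 5 nt of exon with Zeb2. Gm29101 (in Twist2), Gm16147 and Gm22709 (Zeb1), Gm27404 and Gm27645 (Zeb2), Gm20471, Gm26523 and Gm37644 (Prrx1), Gm10824 (Tcf21) and Gm20388 (Foxc2) share no exon with the member.

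Of the 10 factors, 9 had a mean of at least 1 FPKM, and 7 of these reached more than 10 FPKM. Over all genes listed, 23.2% had a mean of at least 1 FPKM, and over the protein-coding genes of GENCODE M21 it was 49.2%. The median of the 10 means was 36.7 FPKM, whereas that of all genes listed was 0 and that of the 12905 genes with at least 1 FPKM was 17.5. FPKM fell in the order Prrx1, Zeb2, Zeb1, Snai2, Twist1, Snai1, Foxc2, Prrx2, Twist2 and Tcf21. Among the 12905 genes with at least 1 FPKM, Prrx1 had rank 846 from the top, Zeb2 rank 2072, Zeb1 rank 2136, Snai2 rank 3321, Twist1 rank 3435, Snai1 rank 4261, Foxc2 rank 6115, Prrx2 rank 8227 and Twist2 rank 9862. For 7 of the 9 neighbouring pairs in this order, the values of the libraries did not overlap. The values of Zeb2 overlapped those of Zeb1, and the values of Snai2 overlapped those of Twist1, so no order within these pairs can be given. The within-library ratio was tested by exact permutation, flipping its sign in each library (two-sided), which gave p = 0.25 (0.321 after Benjamini-Hochberg adjustment over the 9 pairs) for each of the 7 pairs that stood apart. The neighbours were formed by ordering the same values that were tested, and with 3 libraries no smaller p can be reached. The exact p was 0.5 for Zeb2 and Zeb1 and 0.75 for Snai2 and Twist1.

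**Figure D1:**
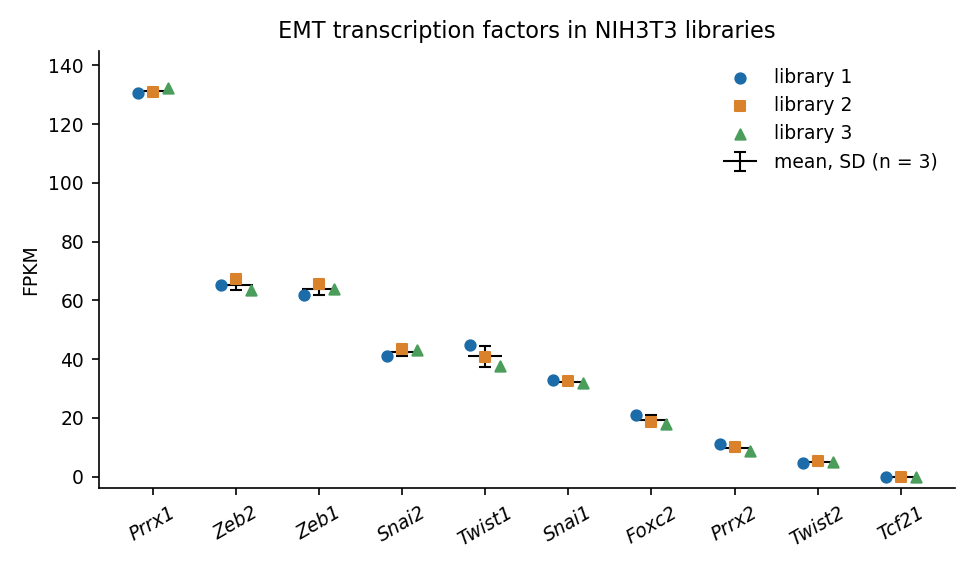
FPKM (y axis) of the 10 factors (x axis, in order of their mean) in libraries 1, 2 and 3, with the mean and SD (n = 3). Prrx1 stands above the others at 131 FPKM, Zeb2 with Zeb1 and Snai2 with Twist1 overlap, and Tcf21 is at 0.

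Prrx1 was the highest of the 10 factors. Prrx1 (ENSMUSG00000026586, chr1:163245119-163313710, minus strand) had 130.7, 130.9 and 132.3 FPKM in libraries 1, 2 and 3. The mean was 131.3 ± 0.885 FPKM (SD, n = 3). Its paralog Prrx2 (ENSMUSG00000039476, chr2:30834972-30881251, plus strand) had 11.0, 10.1 and 8.67 FPKM there, or 9.94 ± 1.18 (SD, n = 3) on average. All values of Prrx1 lay above those of Prrx2. Prrx1 was 11.9-fold higher in library 1, 12.9-fold in library 2 and 15.3-fold in library 3, and it made up 93.0% ± 0.822 (SD, n = 3) of the summed FPKM of the pair. The log2 ratio, with 0.1 FPKM added to both genes, was 3.72 ± 0.18 (SD, n = 3) and was far larger than its spread. The same exact permutation test gave p = 0.25, which is the smallest p possible, and 0.333 after adjustment over the 4 paralog pairs. By fragments not divided by length the excess was larger, at 7620, 7385 and 7652 fragments of Prrx1 against 146, 130 and 114 of Prrx2, because the length behind the FPKM was 4042 nt for Prrx1 and 919 nt for Prrx2. The related homeobox gene Shox2 lay between both, at 23.9 ± 0.692 FPKM (SD, n = 3), whereas Alx1 and Alx4 were listed at 0 in every library. Among the 226 protein-coding genes with the word homeobox in their description, of which 27.4% had at least 1 FPKM, Prrx1 ranked 3 and Prrx2 ranked 31. The set was chosen after the values were seen, and it includes Zeb2 at rank 5 and Zeb1 at rank 7.

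Promoter sequences of the pair, 300 bases around the RefSeq start sites on GRCm38.p6, are given because this pair differed the most in level. They run from 250 bases before the start to 50 after it, and capitals mark the CG dinucleotides, of which Prrx1 (chr1:163313601-163313900, minus strand) holds 6 and Prrx2 (chr2:30845117-30845416, plus strand) holds 28.
Prrx1: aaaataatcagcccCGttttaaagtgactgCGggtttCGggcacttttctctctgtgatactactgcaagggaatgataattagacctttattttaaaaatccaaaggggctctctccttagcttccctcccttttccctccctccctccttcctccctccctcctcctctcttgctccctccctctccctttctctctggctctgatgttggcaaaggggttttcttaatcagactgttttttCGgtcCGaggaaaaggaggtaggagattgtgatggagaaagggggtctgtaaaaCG
Prrx2: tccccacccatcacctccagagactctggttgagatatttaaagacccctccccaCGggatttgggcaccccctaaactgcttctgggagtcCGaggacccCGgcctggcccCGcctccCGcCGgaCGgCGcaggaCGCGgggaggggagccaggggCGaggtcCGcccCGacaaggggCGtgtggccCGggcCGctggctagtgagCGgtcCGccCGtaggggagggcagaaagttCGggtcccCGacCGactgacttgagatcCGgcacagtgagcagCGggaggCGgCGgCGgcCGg
The observed to expected CpG ratio was 0.360 for Prrx1 and 0.756 for Prrx2, against a median of 0.384 over 32851 promoters. In these windows, the higher paralog thus had fewer CG dinucleotides. The Prrx1 window spans the annotated start of its gene, at 163313710 in GENCODE M21. That of Prrx2 lies inside its gene, which starts at 30834972, and a window at that start was not examined. For the other members with an entry, the ratio was 0.827 for Twist1, 0.803 for Twist2, 0.925 for Snai1 and 0.378 for Tcf21, and it lay between 0.420 and 0.690 for the 4 windows of Zeb2. Twist1 and Twist2, which differed in level, were thus alike in this ratio. Snai2, Zeb1 and Foxc2 had no entry.

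Twist1 was the higher Twist gene. Twist1 (ENSMUSG00000035799, chr12:33957671-33959829, plus strand) had 44.8, 40.7 and 37.5 FPKM in libraries 1, 2 and 3, a mean of 41.0 ± 3.63 (SD, n = 3). Twist2 (ENSMUSG00000007805, chr1:91801461-91848028, plus strand) had 4.75, 5.20 and 5.01 FPKM, a mean of 4.99 ± 0.228 (SD, n = 3). All values of Twist1 lay above those of Twist2. Twist1 was 9.42-fold, 7.82-fold and 7.50-fold higher in libraries 1, 2 and 3, and it made up 89.1% ± 1.15 (SD, n = 3) of the summed FPKM. The log2 ratio was 3.01 ± 0.17 (SD, n = 3), with p = 0.25 in the exact permutation test (0.333 adjusted over the 4 pairs). Twist2 shares 1477 nt of exon with the antisense gene Gm29100, which itself had 139, 124 and 142 fragments in libraries 1, 2 and 3, against 132, 140 and 138 of Twist2. The use of strand in counting is not given in the sources used here, so fragments of Twist2 and Gm29100 in the shared exons cannot be told apart. The length behind the deposited FPKM of Twist2 was its mean isoform length of 1927 nt. With its fragments divided by all 3174 nt of its exons instead, Twist2 had 3.03 ± 0.139 FPKM (SD, n = 3). By the means, Twist1 was 13.5-fold higher in that setting. With the fragments of Twist2 divided only by its 1697 nt of exon outside Gm29100, Twist2 had 5.66 ± 0.259 FPKM (SD, n = 3). Twist1 was then 7.26-fold ± 0.909 (SD, n = 3) higher. This changes the length alone, and none of the fragments of Gm29100 were assigned to Twist2. Of the other Twist-family bHLH genes checked, Hand1, Hand2 and Ferd3l were listed at 0 in all libraries.

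Snai2 (also called Slug) lay above Snai1, but by much less. Snai1 (ENSMUSG00000042821, chr2:167538195-167542814, plus strand) had 32.8, 32.4 and 31.9 FPKM in libraries 1, 2 and 3, a mean of 32.4 ± 0.474 (SD, n = 3). Snai2 (ENSMUSG00000022676, chr16:14705852-14709385, plus strand) had 40.9, 43.5 and 43.1 FPKM, a mean of 42.5 ± 1.37 (SD, n = 3). Every value of Snai2 lay above every value of Snai1. The excess of Snai2 was 1.25-fold in library 1, 1.34-fold in library 2 and 1.35-fold in library 3, and Snai2 made up 56.8% ± 1.09 (SD, n = 3) of the summed FPKM. The log2 ratio of Snai1 to Snai2 was -0.39 ± 0.06 (SD, n = 3), with p = 0.25 in the exact permutation test (0.333 adjusted). Both genes have 1 annotated isoform, so this ratio did not depend on how isoform lengths were combined. Of the fragments of both genes, Snai2 took 60.9% in library 1, with an exact Clopper-Pearson 95% interval of 58.7% to 63.0%, 62.6% (60.4% to 64.7%) in library 2 and 62.8% (60.6% to 64.9%) in library 3. These intervals cover counting error only. They are for fragments not divided by length, which was 1621 nt for Snai1 and 2021 nt for Snai2. At equal FPKM, Snai2 would thus still hold more fragments, and the intervals are not those of its FPKM share. Snai3, the further Snail gene, was listed at 0, as was the related Scrt2, and Scrt1 had 1 fragment in all libraries together. The Snai1 promoter is the only one of the 7 members with an entry that holds CACCTG or CAGGTG, the E-box form that Snail and ZEB proteins are known to bind and which reads as the other form on the opposite strand. Such a match occurs in 20.2% of the 32851 promoters. It starts 126 bases before the start site and is in capitals in the window chr2:167537945-167538244 (plus strand).
Snai1: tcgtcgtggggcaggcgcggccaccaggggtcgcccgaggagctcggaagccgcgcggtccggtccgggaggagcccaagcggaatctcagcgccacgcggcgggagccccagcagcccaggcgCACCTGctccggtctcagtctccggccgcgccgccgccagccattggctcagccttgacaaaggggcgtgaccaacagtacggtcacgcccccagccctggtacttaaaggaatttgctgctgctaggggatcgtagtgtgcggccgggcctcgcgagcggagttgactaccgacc

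Zeb1 and Zeb2 differed by less than the spread between libraries. Zeb1 (ENSMUSG00000024238, chr18:5591860-5775467, plus strand) had 61.8, 65.7 and 63.9 FPKM in libraries 1, 2 and 3, a mean of 63.8 ± 1.96 (SD, n = 3). Zeb2 (ENSMUSG00000026872, chr2:44983632-45117395, minus strand) had 65.3, 67.4 and 63.6 FPKM, a mean of 65.4 ± 1.90 (SD, n = 3). Zeb2 was higher in libraries 1 and 2 and Zeb1 in library 3. Zeb1 made up 49.4% ± 0.734 (SD, n = 3) of the summed FPKM, and the log2 ratio of Zeb1 to Zeb2 was -0.04 ± 0.04 (SD, n = 3), which is within its spread. The exact permutation test gave p = 0.5. No higher paralog could be named for this pair from the deposited values.

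**Figure D2:**
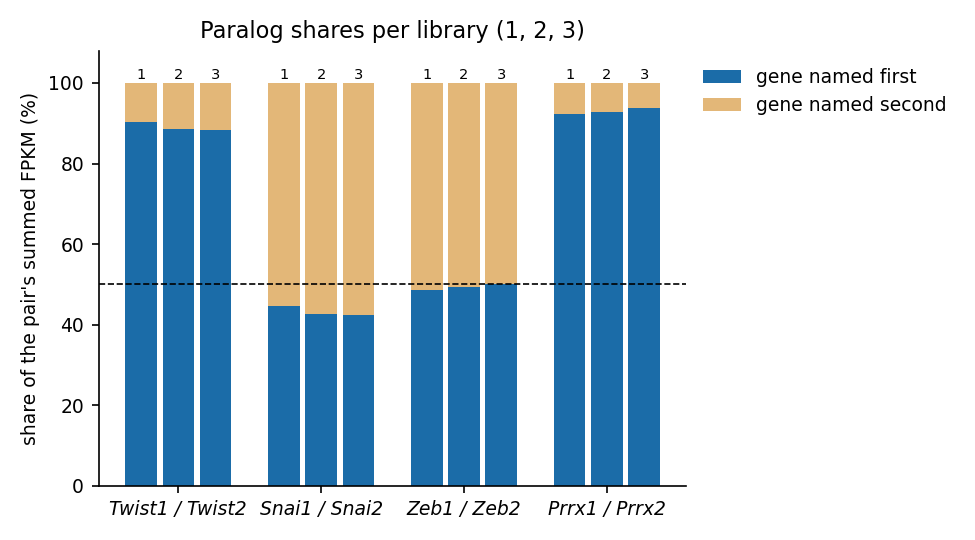
Share of each paralog in the summed FPKM of its pair (y axis, %), as stacked bars for libraries 1, 2 and 3 of each pair (x axis), with a dashed line at 50%. Prrx1 and Twist1 take 88.2% to 93.9% in every library, Snai2 takes 55.5% to 57.5%, and Zeb1 and Zeb2 lie at the line.

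The even level of the Zeb genes depends on the gene length that enters the FPKM. For 99.1% of the genes with a value above 0, the length behind the FPKM equalled the mean length of the isoforms in GENCODE M21. Zeb1 has 12 annotated isoforms of 266 to 5801 nt with a mean of 1736 nt. Zeb2 has 29 isoforms of 240 to 9124 nt in GENCODE M21, and its values imply a length of 2131 nt. The longest isoform exceeded the length used by a factor of 3.34 for Zeb1 and 4.28 for Zeb2, larger than for 95.7% and 99.1% of the genes with at least 1 FPKM, whose median factor was 1.72. By contrast, Twist1, Snai1, Snai2 and Foxc2 have 1 isoform each. When fragments were divided by the longest isoform instead, Zeb1 fell to 19.1 ± 0.585 FPKM (SD, n = 3) and Zeb2 to 15.3 ± 0.445, so that both lay below Snai2, Twist1 and Snai1. With the union of all annotated exons, they were at 10.8 ± 0.331 and 6.99 ± 0.203. With the mean of the isoforms annotated as protein coding, they were at 44.5 ± 1.36 and 55.6 ± 1.62, with both means again above those of Snai2 and Twist1. Zeb1 was thus 1.25-fold and 1.54-fold higher than Zeb2 in the former settings, but at 0.800 times Zeb2 in the last. By fragments alone, Zeb2 had 2006, 2004 and 1938 in libraries 1, 2 and 3, and Zeb1 had 1548, 1593 and 1586. For Prrx1, the longest isoform gave 81.3 ± 0.548 FPKM and the union of exons 48.0 ± 0.323, and Prrx1 stayed the highest of the 10 factors in each of these settings. These lengths were tried after the values were seen.

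**Figure D3:**
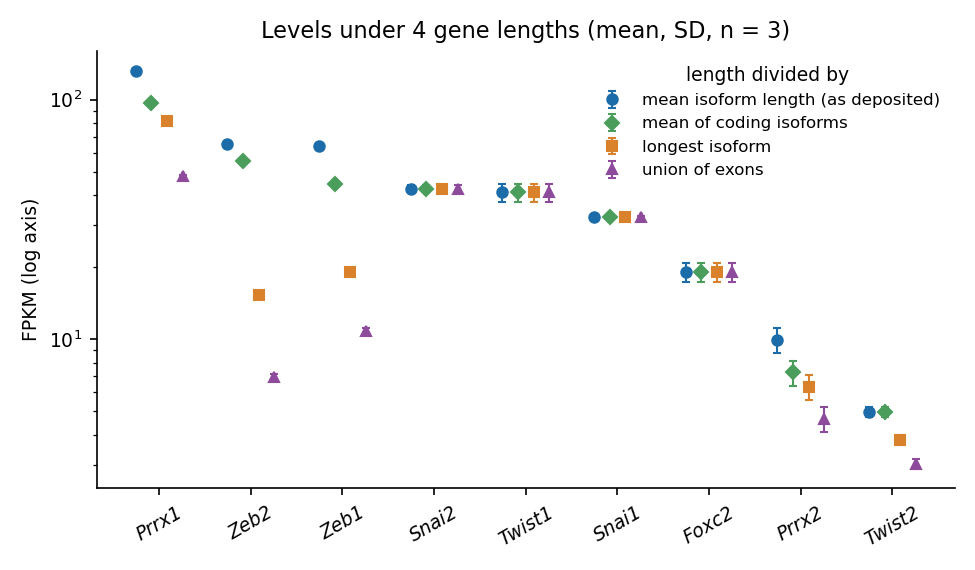
FPKM on a log axis (mean and SD, n = 3) of the 9 factors above 0, with fragments divided by the mean isoform length as deposited, by the mean of the coding isoforms, by the longest isoform or by the union of exons. The 4 genes with 1 isoform do not move, while Zeb1 goes from 63.8 to 10.8 FPKM and Zeb2 from 65.4 to 6.99.

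To see how uneven the member pairs are, they were set beside other pairs of genes whose names differ only in a final 1 or 2. Such names do not always mark paralogs, so this is a description without a test. Over 1913 such pairs with a summed level of at least 1 FPKM, the higher gene took a median of 88.3% of the summed FPKM. Over the 1432 pairs in which both genes are protein coding and a letter precedes the number, it took 82.1%, with quartiles of 64.8% and 99.4%. In these coding pairs, the share of the higher gene was smaller than that in Prrx1 and Prrx2 for 62.6% of pairs and smaller than that in Twist1 and Twist2 for 58.0%. It was smaller than that in Snai1 and Snai2 for 11.0% of pairs and smaller than that in Zeb1 and Zeb2 for 1.19%. At this limit, the Prrx and Twist pairs were near the middle of the range, and the Snai and Zeb pairs near its even end. The place depends on the limit, since pairs with a low sum were admitted. Over all numbered pairs, the median fell from 88.3% to 80.0% with a summed level of at least 10 FPKM. All 4 member pairs exceed that level, and their place among pairs of like level was not determined.

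**Figure D4:**
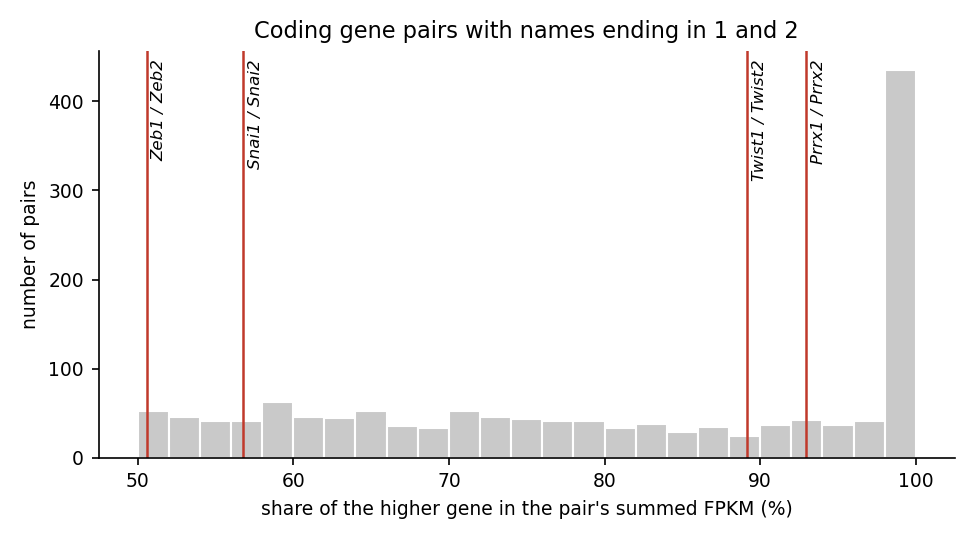
Number of coding gene pairs (y axis) by the share of the higher gene in the summed FPKM (x axis, %), for 1432 pairs with names ending in 1 and 2. Red lines mark the 4 member pairs, from the mean FPKM, with Zeb1 and Zeb2 at 50.6%, Snai1 and Snai2 at 56.8%, Twist1 and Twist2 at 89.2% and Prrx1 and Prrx2 at 93.0%.

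Foxc2 (ENSMUSG00000046714, chr8:121116171-121118895, plus strand) had 21.1, 18.5 and 17.9 FPKM in libraries 1, 2 and 3, a mean of 19.2 ± 1.75 (SD, n = 3). Its paralog Foxc1, which was not among the 10 factors, had 3.19, 2.87 and 2.69 FPKM, a mean of 2.92 ± 0.254 (SD, n = 3). Foxc2 was 6.63-fold, 6.44-fold and 6.63-fold higher in libraries 1, 2 and 3 and made up 86.8% ± 0.190 (SD, n = 3) of the sum. Both genes were highest in library 1, and their ratio was about the same in all libraries. Among the 44 genes with a forkhead box name, a set chosen after the values were seen, 45.5% had at least 1 FPKM and Foxc2 ranked 12.

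Tcf21 (ENSMUSG00000045680, chr10:22817281-22820174, minus strand) was listed at 0 in every library. A count of 0 allows up to 3 fragments in a library, which for Tcf21 correspond to 0.136, 0.141 and 0.137 FPKM in libraries 1, 2 and 3. Its relatives were also at or near 0. Msc was listed at 0, Tcf24 had 1 fragment and Tcf23 had 2 in all libraries together, and Tcf15 had 0.0961 ± 0.0434 FPKM (SD, n = 3). Of the 15 other genes of the families checked, 2 (13.3%) had at least 1 FPKM, namely Shox2 and Foxc1, and 9 were listed at 0. Over all protein-coding genes, the share with at least 1 FPKM was 49.2%, and over the homeobox genes above it was 27.4%.

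For the spread between libraries, fragments were compared with counting error. The coefficient of variation was below that of counting error alone for Twist2, Snai1 and Prrx1, and within 1.36 times of it for Snai2, Zeb1, Zeb2 and Prrx2. For Prrx1 it was 0.674% against 1.15%. Twist1 and Foxc2 varied more, with 8.85% against 3.24% and 9.12% against 3.67%. Twist1 had 1051, 925 and 874 fragments in libraries 1, 2 and 3, and Foxc2 had 831, 703 and 696. Both were thus highest in library 1. A chi-square test of fragments against the library totals, which compares these libraries and not conditions, gave an adjusted p of 0.0263 for Twist1 and 0.0787 for Foxc2 (Benjamini-Hochberg over 11711 genes). It called 1 of the 9 members tested, while 2.31% of all genes tested were called. At an unadjusted p under 0.05 it gave 2 of the 9, Twist1 and Foxc2, and 10.2% of all genes tested. Without library 1 the adjusted p of Twist1 was 0.770, and without library 3 it was 0.468, so the call rests on these libraries. The ratio of Twist1 to Twist2 was also highest in library 1.

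**Figure D5:**
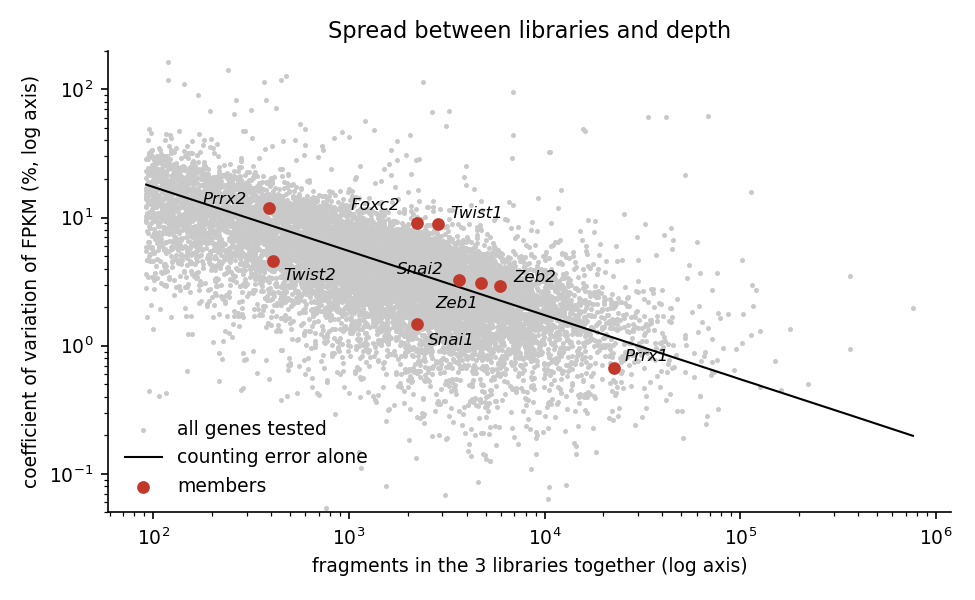
Coefficient of variation of FPKM over the 3 libraries (y axis, %, log) against the fragments of all libraries together (x axis, log) for the 11711 genes tested in grey and the 9 members above 0 in red. The black line is counting error alone, and Twist1 (8.85%) and Foxc2 (9.12%) lie above it by a factor of 2.73 and 2.49.

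The genes these factors are known to act on and with were read from lists, of which the highest and lowest genes are named. These lists were chosen with earlier results of these data known, so their shares beside all protein-coding genes are descriptions without a test. Of 18 epithelial genes, including E-cadherin and junction genes known to be repressed by Snail and ZEB proteins, 0 had a mean of at least 1 FPKM, and 5 were listed at 0. The summed level of the 18 genes was 1.27 to 1.75 FPKM per library. The highest was Rab25, an epithelial trafficking GTPase, with 0.656 ± 0.0494 FPKM (SD, n = 3). E-cadherin (Cdh1), named after its value was seen, had 0.370, 0.434 and 0.523 FPKM in libraries 1, 2 and 3, which rested on 15, 17 and 21 fragments. Epcam and Krt18 were among those at 0. Of 9 epithelial transcription factors, Grhl1 alone reached 1 FPKM, with 1.54 ± 0.266 (SD, n = 3), and 5 were listed at 0, among them Grhl3. Of 15 mesenchymal genes, 13 had at least 1 FPKM. The highest was fibronectin (Fn1), with 4377 ± 86.1 FPKM (SD, n = 3), and the lowest was Cdh11, a mesenchymal cadherin, with 0.0122 ± 0.0106. N-cadherin (Cdh2), named after its value was seen, had 41.9 ± 0.181 FPKM (SD, n = 3). Over all protein-coding genes, 49.2% had at least 1 FPKM. The share of the epithelial genes was thus below this, and that of the mesenchymal genes, at 86.7%, above it. Several of the mesenchymal genes, Fn1 among them, also belong to the fibroblast markers given at the start.

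Genes that act with these factors were read beside the 49.2% of protein-coding genes with at least 1 FPKM. Of 7 genes for bHLH partners and Id inhibitors, 5 (71.4%) had at least 1 FPKM. Twist1 binds E-boxes with E proteins, and the highest of these genes was the E protein gene Tcf12 with 101.7 ± 1.64 FPKM (SD, n = 3). The other E protein genes, Tcf3 and Tcf4, were at 56.6 ± 0.940 and 58.7 ± 2.97 FPKM and were named after their values were seen, as was Id1 below. Id proteins bind E proteins without binding DNA. The lowest of the list was Id2 with 0.705 ± 0.142 FPKM, while Id1 had 35.5 ± 0.607. All 11 corepressor and chromatin partner genes had at least 1 FPKM, from 23.5 ± 0.458 for Rcor1 to 127.2 ± 5.32 for Ctbp1, a corepressor that ZEB proteins recruit. Of 11 other EMT-linked factors, 7 (63.6%) had at least 1 FPKM, not far above the share of all protein-coding genes. The highest was Hmga2, a chromatin protein known to induce Snai1 and Twist1, with 488.9 ± 3.76 FPKM (SD, n = 3), and Gsc was listed at 0.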

How the data were processed

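Untreated NIH3T3 cells were profiled by UMI-RNAseq in 3 libraries, which the labels place in 1 group by cell line. Per the labels and the methods, the authors identified UMIs with UMI-tools 1.0.0, mapped reads with HISAT2 2.0.4, removed reads with the same position and UMI, counted per gene with HTSeq 0.6.1, and deposited FPKM values from gene length and counts. DESeq 1.10.1 is also named in the submitters' processing notes. Its use, and the genome build and annotation of the counting, are not given in the sources used here. Both deposited tables hold the same values, and 0 columns of values were left unused.

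FPKM were used as deposited. Fragments were recovered as FPKM multiplied by gene length and library total. The totals came from genes with 1 isoform and 1 fragment, and lengths from the mean isoform length in GENCODE M21 (GRCm38), in which 55480 of 55573 gene IDs were found. Of 26193 genes with a value above 0, 25966 gave whole fragments within 0.001, and 227 took the nearest length that did. Paralog ratios were log2 of FPKM + 0.1 within each library, tested by exact permutation of their sign over libraries (two-sided). The chi-square test used genes with at least 30 expected fragments per library, with Benjamini-Hochberg adjusted p under 0.05 called. Intervals are exact Clopper-Pearson 95% intervals, and a count of 0 was given a floor of 3 fragments. Interval and floor hold for counting error alone. Library totals were 13959723 to 14423209 fragments, and members above 0 rest on 114 to 7652 fragments per library.

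Python 3.11.15, numpy 2.4.6, pandas 2.3.3, scipy 1.17.1 and matplotlib 3.10.9 were used. Promoters came from RefSeq (GRCm38.p6), with entries for 7 of the 10 members. The genes named are the 10 members, the highest and lowest gene of each list, genes of the members' families, and genes whose annotation overlaps a member. The members and lists were chosen with earlier results of these data known. Alternatives were other pseudocounts, detection limits, scalings (TPM, median of ratios), the median, fragments without length, each replicate left out, and, added after the values were seen, other gene lengths, coding pairs only and Twist2 outside Gm29100. AmpFISH images were not analysed here.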

Additional observations from a re-analysis of the deposited data

How the results depend on the processing

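Recomputing 24 results with the alternatives yielded 204 values. In 163 of them the sign or the side of the threshold held, a level shifted by no more than its SD, or a count stayed within a factor of 1.5. Part of these 163 could not have changed, and they are no measure of stability. Among them are the level of Tcf21, at 0 throughout, and the levels of the genes with 1 isoform under other gene lengths. A value moved further in 37 and a call was lost in 2. The 37 include the level in TPM of each factor above 0, where the unit itself differs from FPKM. In TPM the signs of the pairs and the order of the factors did not change. The sign reversed in 2, both for the log2 ratio of Zeb1 to Zeb2, which was -0.04 as deposited, 0.32 with the longest isoform and 0.62 with the union of exons. The signs for the other 3 pairs held in all alternatives, with p never below 0.25. The number of members with at least 1 FPKM was 9 in each alternative except a limit of 10 FPKM, which left 7. The median share of the higher gene over numbered pairs was 88.3% and became 80.0% with a summed level of at least 10 FPKM, 98.9% without a filter and 82.1% over coding pairs. The number of genes whose fragments differed between libraries was 270 and ranged from 99 to 198 with 1 replicate left out, lowest without library 1. The call of Twist1 was lost without library 1 and without library 3, as given above. Of the 9 neighbouring pairs, 7 kept their order with the longest isoform and with the union of exons. In both settings, however, the means of Zeb1 and Zeb2 moved from below Prrx1 alone to below Snai2, Twist1, Snai1 and Foxc2 as well. With the longest isoform, Zeb1 and Foxc2 were nearly equal, at 19.1 and 19.2 FPKM. No paired analysis was possible because no other condition was there to match by library, while paralogs were compared within each library throughout. Prrx2 and Twist2 rest on at most 146 fragments per library, with a counting error of 8.77% and 8.55%.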

Other observations

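Of 25 other transcription factors of mesenchymal lineages in a list, 16 (64.0%) had a mean of at least 1 FPKM, beside 49.2% of all protein-coding genes. The median over all 25 genes of the list, those below 1 FPKM included, was 11.2 FPKM, beside 0 over all genes listed. The highest was Osr1, an odd-skipped factor of lateral and intermediate mesoderm, with 99.1 ± 3.94 FPKM (SD, n = 3), from 94.6 FPKM in library 2 to 101.5 in library 1. The lowest was Tbx5, a T-box factor of forelimb and heart, which was listed at 0 in every library. In FPKM as deposited, Osr1 lay between Prrx1 and Zeb2.

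Of 8 genes for the turnover and modification of Snail and Twist proteins, 8 had at least 1 FPKM, beside 49.2% of all protein-coding genes. The highest was Csnk2a1, a casein kinase 2 subunit, with 83.4 ± 2.60 FPKM (SD, n = 3), and the lowest was Usp27x, a deubiquitinase of Snai1, with 1.63 ± 0.0231 FPKM (SD, n = 3).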
